A study of Mus musculus with 6 samples.

Results

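The nephric and gonadal ridge regulators described here are 10 genes chosen by symbol from the deposited table, which lists 23233 usable genes for guts of mouse embryos at stage E10.5. They are Pax2, Pax8, Lhx1, Emx2, Wt1, Osr1, Sall1, Eya1, Calb1 and Cdh16, and each had 1 line in the table. The study compared 3 gut samples of embryos homozygous for a null allele of Ret with 3 wildtype gut samples, by sequencing polyadenylated RNA. C57BL/6J is the strain label of both genotypes, and male is the sex that the series gives for the embryos. In the Ret null value Xist, an RNA of female cells, was high while Y-linked genes were also expressed, as given beside the gonadal genes, and the Xist level goes against that label. The labels name neither the part of Ret that the null allele lacks nor the number of embryos in a sample, and the loss is in every tissue, not the gut alone. The table holds 1 FPKM value (a read density corrected for transcript length and sequencing depth) per genotype, made by the authors from its 3 samples, so neither values per sample nor a spread over replicates can be given, and depth is unknown.

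The kidney and the gonad both arise from the intermediate mesoderm, a strip that runs beside the gut tube and its mesentery on the dorsal body wall. In it Osr1, Lhx1, Pax2 and Pax8 direct formation of the nephric duct, an epithelial tube that expresses Ret and later buds into the mesenchyme of the future kidney, where Eya1, Sall1 and Wt1 act. The gonadal ridge forms on the coelomic surface of the same region and needs Wt1 and Emx2. None of these 10 genes defines a gut layer, although Osr1 is also known from foregut mesoderm and Wt1 from the mesothelium that covers the gut.

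In the text below a gene fell or rose where its q-value in the authors' deposited table was under 0.05, and each log2 fold change is Ret null over wildtype. The error after ± is the standard error implied by the authors' test statistic. Read as a standard normal value, that statistic gave a larger p for Pax8 than the authors' Cuffdiff test did (0.0156 against 0.0004). The errors after ± and the q-values therefore need not match. Of the 10 regulators, 9 had been tested by the authors, 7 fell, 1 rose and 1 did not pass. Among all 13430 tested genes 14.6% were called, 8.88% as falls and 5.69% as rises. Among tested genes whose higher value lay in the range of the members 9.54% fell and 5.43% rose. The median log2 fold change of the 9 tested members was -1.55, against 0.01 over all tested genes. In whole dissected tissue, fewer cells of a type and less RNA per cell cannot be told apart.

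The start regions of 4 of the regulators that fell are shown first, because start sites were at hand only for these. Wt1, Eya1 and Calb1 also fell and are not shown. The RefSeq promoter table (GRCm38.p6) holds 5 of the 10 genes, Pax2, Pax8, Lhx1, Emx2 and Sall1, with 9 start sites. The 250 bases before the start site nearest the edge of each deposited line are printed 5′ to 3′ in the direction of transcription, with each CG dinucleotide in capitals.
Pax2, chr19:44756656-44756905, plus strand: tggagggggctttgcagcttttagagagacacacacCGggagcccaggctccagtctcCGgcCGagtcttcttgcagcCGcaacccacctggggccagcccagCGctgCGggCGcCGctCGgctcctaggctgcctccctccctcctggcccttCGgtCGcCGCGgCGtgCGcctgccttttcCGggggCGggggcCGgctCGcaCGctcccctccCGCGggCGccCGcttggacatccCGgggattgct
Pax8, chr2:24475600-24475849, minus strand: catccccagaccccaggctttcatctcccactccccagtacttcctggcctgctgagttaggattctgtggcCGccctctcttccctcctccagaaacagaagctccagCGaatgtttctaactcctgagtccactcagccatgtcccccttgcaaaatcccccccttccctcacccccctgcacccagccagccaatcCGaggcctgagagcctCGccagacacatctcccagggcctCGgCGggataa
Emx2, chr19:59458440-59458689, plus strand: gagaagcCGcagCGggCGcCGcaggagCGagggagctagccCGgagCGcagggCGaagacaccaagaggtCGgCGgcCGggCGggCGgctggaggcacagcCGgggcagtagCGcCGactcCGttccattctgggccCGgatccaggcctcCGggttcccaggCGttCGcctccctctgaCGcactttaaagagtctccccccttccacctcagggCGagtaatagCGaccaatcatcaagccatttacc
Sall1, chr8:89044163-89044412, minus strand: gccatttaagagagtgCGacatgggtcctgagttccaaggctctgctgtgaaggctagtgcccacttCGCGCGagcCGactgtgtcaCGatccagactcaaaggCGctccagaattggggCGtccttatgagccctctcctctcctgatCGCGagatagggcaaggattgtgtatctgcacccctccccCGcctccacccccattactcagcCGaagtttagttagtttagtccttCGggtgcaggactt

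These stretches hold 25 CG dinucleotides in Pax2, 6 in Pax8, 24 in Emx2 and 13 in Sall1, against a median of 6 over the 32851 promoters of the table. The printed Pax2 stretch is 72.8% G and C and that of Pax8 60.4%, with a median of 52.4% over all promoters. The paralogs do not differ at every start site, since the other Pax2 stretches in the table are at 60.8% with 20 CG dinucleotides and at 52.8% with 5. The other Sall1 stretches, at 74.4% and 78.4%, hold 25 and 30. A set of 4 short motifs was searched on both strands of each window from 250 bases before to 50 after a start site, and a match is only a description of the letters. TAATTA, the core read by homeodomain proteins such as those of Lhx1 and Emx2, occurred in 1 of the 9 member windows and in 5.29% of all promoters. That match begins at base 37 after the Emx2 start site, shown here in 30 bases with the motif in capitals.
Emx2, chr19:59458710-59458739, plus strand: tatgtgatccccgcacTAATTAggctcatg
GCGTGGG, a core bound by zinc fingers of the Wt1 and Egr type, occurred in 1 of the 9 windows and in 5.04% of all promoters. The match, on the reverse strand, lies 124 bases before the most downstream listed Sall1 start site and is shown in capitals.
Sall1, chr8:89042968-89042997, minus strand: ccagccccaccCCCACGCggccctgctccg
GTCACGC, part of the site of the paired domain of Pax2 and Pax8, occurred in 0 of the 9 windows and in 2.09% of all promoters, and TATAAA, the TATA box core, in 0 of the 9 and in 13.6%.

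Of the 5 members tied most closely to the nephric duct, Pax2, Pax8 and Calb1 fell, Cdh16 did not pass and Lhx1 was not tested. Pax2, the paired-box factor needed for the duct and the ureteric bud, stood at 0.836 FPKM in Ret null gut, against 4.50 FPKM in wildtype gut. Its level was 5.38-fold lower (log2 fold change -2.43 ± 0.46, or -1.58 with 1 FPKM added to both values). Its q was 0.000775, the lowest in the authors' deposited table. That lowest value is shared by 867 genes, among them 7 of the 9 tested members. The Pax2 line lies on chromosome 19, 44757394 to 44837869 (mm10), and spans introns and exons of the gene. GENCODE places 2 antisense RNAs on the opposite strand there, Gm20395 and 1700039E22Rik. The labels do not say that strand was kept, so reads of both strands cannot be told apart, but the line of 1700039E22Rik was at 0.0471 FPKM in Ret null gut and 0.157 FPKM in wildtype gut.

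Pax8, the close paralog that can stand in for Pax2 in the early duct, was at 1.03 FPKM in Ret null gut, against 2.29 FPKM in wildtype gut. It fell by 1.16 ± 0.48 on the log2 scale (q = 0.00468 in the authors' deposited table) on chromosome 2, 24420560 to 24475566. When p was recomputed from the Cuffdiff test statistic, read as a standard normal value (the normal p), this call was lost, with an adjusted p of 0.21. By the normal p 6 members fell and 1 rose, against 2.78% of all tested genes falling and 1.72% rising. The ratio of Pax8 to Pax2 on the per-length FPKM scale was 1.23 in Ret null gut and 0.51 in wildtype gut, so that Pax2 was the higher of the pair in wildtype and Pax8 in Ret null. The log2 fold change of Pax8 was above that of Pax2 by 1.27 ± 0.67, an error that combines both implied standard errors, and this difference was not tested.

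Lhx1, a LIM homeodomain factor required for the duct to form and extend, was not tested by the authors. It was at 0.324 FPKM in Ret null gut and 0.922 FPKM in wildtype gut, the lowest wildtype level of the 10 genes, on chromosome 11, 84519379 to 84525534. No statement on its change can be made from a test.

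Calb1, which encodes the calcium-binding protein calbindin and marks the duct and ureteric bud epithelium, showed the largest fall of the 10 genes. It was at 0.300 FPKM in Ret null gut, against 4.25 FPKM in wildtype gut, 14.1-fold lower (-3.82 ± 0.59, q = 0.000775 in the authors' deposited table). The Ret null level is low, and with 1 FPKM added to both values the log2 fold change was -2.01. Its line matches the annotated gene on chromosome 4, 15881264 to 15906709. This fall ranked 21 among the 13422 tested genes with a value above 0 in both genotypes, and that of Pax2 ranked 67. Calb1 is also expressed by some neurons.

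Cdh16, the kidney-specific cadherin of duct and tubule epithelium, had a low value in Ret null gut but did not pass. It was at 2.001 FPKM in Ret null gut and 5.84 FPKM in wildtype gut, with a log2 fold change of -1.55 ± 1.22, a 95% interval of -3.94 to 0.85 and q = 0.256 in the authors' deposited table. Its implied error was the widest of the 9 tested members. The authors' locus, on chromosome 8 from 104446719 to 104624396, is a shared stretch that also holds Nae1, Car7 and Pdp2. Nae1 stood at 28.8 FPKM in Ret null gut and 28.4 FPKM in wildtype gut, and Pdp2 at 3.26 FPKM in Ret null gut and 3.51 FPKM in wildtype gut.

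**Figure D1:**
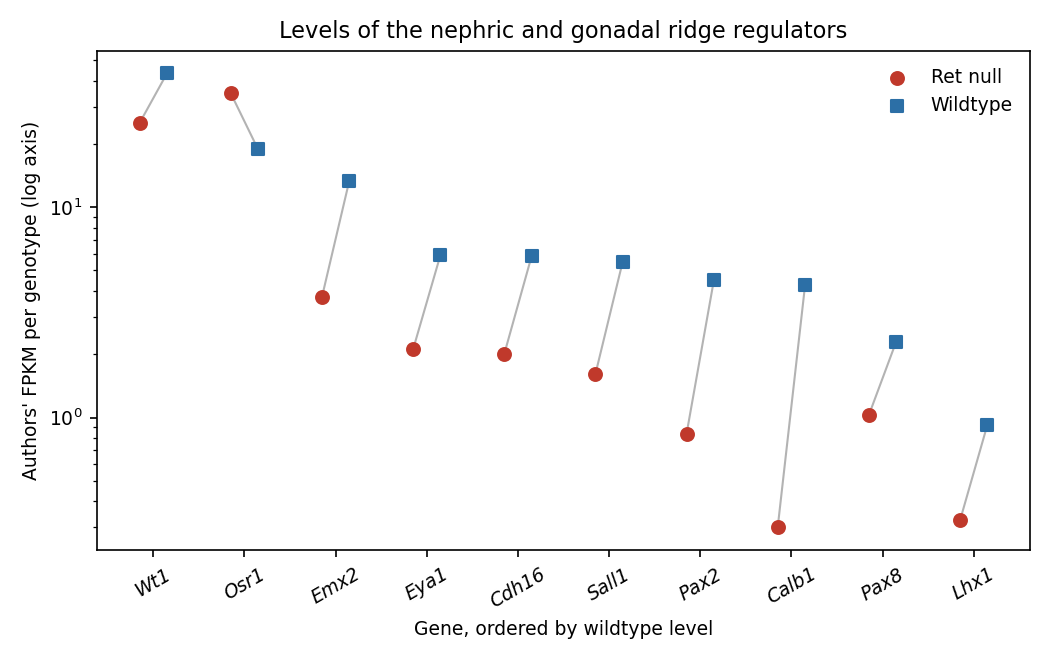
Authors' FPKM per genotype (log axis) for each of the 10 genes, ordered by wildtype level, with Ret null as circles and wildtype as squares, 1 value per genotype and so no error bar. Of the 10 genes, 9 have the lower circle, and Osr1, at 34.8 FPKM in Ret null and 18.8 FPKM in wildtype, has the higher one.

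The plot of levels by gene orders the members on the per-length scale. In Ret null gut Osr1 and Wt1 led, then Emx2, Eya1, Cdh16, Sall1, Pax8, Pax2, Lhx1 and Calb1. In wildtype gut the order was Wt1, Osr1, Emx2, Eya1, Cdh16, Sall1, Pax2, Calb1, Pax8 and Lhx1. Without values per sample it cannot be said which neighbours in either order differ beyond their spread. Wildtype Wt1 lay at percentile 86.9 of the wildtype levels of tested genes and wildtype Calb1 at percentile 24.2. Calb1 in Ret null gut lay at percentile 0.328 of the Ret null levels of the same tested genes. These percentiles leave out the 9802 lines not tested, such as Lhx1, which was low in both genotypes. They are therefore not ranks over all genes, and the low place of Calb1 in Ret null gut depends on which lines were tested. A level of 1 FPKM was reached by 7 of the 10 genes in Ret null gut and by 9 in wildtype gut.

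Among regulators of the kidney mesenchyme, Sall1 and Eya1 fell by similar amounts. Sall1, a zinc finger repressor needed for the ureteric bud to invade the kidney mesenchyme, was at 1.61 FPKM in Ret null gut, against 5.51 FPKM in wildtype gut (log2 fold change -1.78 ± 0.29). Eya1, a transcriptional coactivator and phosphatase that acts with SIX-family factors upstream of Gdnf, was at 2.11 FPKM in Ret null gut, against 5.91 FPKM in wildtype gut (-1.49 ± 0.29). Both had q = 0.000775 in the authors' deposited table. The lines lie on chromosome 8, 89027243 to 89044162, for Sall1 and on chromosome 1, 14168958 to 14310199, for Eya1. Both genes also act in other organs of the embryo, among them limb, ear and somite derivatives.

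Osr1, the odd-skipped factor that is among the earliest markers of intermediate and lateral plate mesoderm, was the member that rose. Its level was 34.8 FPKM in Ret null gut, against 18.8 FPKM in wildtype gut, a log2 fold change of 0.89 ± 0.19 with q = 0.000775 in the authors' deposited table. Its line matches the gene on chromosome 12, 9574442 to 9581500. The rise ranked 361 among the tested genes. Genes of the gut wall in which Osr1 is also known were higher in the same Ret null value, as given further on, and their part in this rise was not tested.

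Wt1 and Emx2 are the members tied most closely to the gonadal ridge. Emx2, a homeodomain factor of the ridge and of the nephric duct, fell to 3.73 FPKM in Ret null gut, against 13.3 FPKM in wildtype gut (-1.84 ± 0.27). Wt1, a zinc finger factor of the ridge, the kidney mesenchyme and the mesothelium, was at 25.1 FPKM in Ret null gut and 43.2 FPKM in wildtype gut (-0.78 ± 0.17), the smallest of the 7 falls. Both had q = 0.000775 in the authors' deposited table, and both lines match the annotated genes, Emx2 on chromosome 19, 59458690 to 59465357, and Wt1 on chromosome 2, 105126529 to 105173614. The log2 fold change of Emx2 was below that of Wt1 by more than their combined error (-1.05 ± 0.32), and that of Osr1 was above Wt1 by 1.67 ± 0.25. These differences between members were described and not tested.

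Emx2os, an RNA transcribed from the opposite strand, was named after its value was seen. Its line ends 54 bases before the Emx2 line begins, within the start region of Emx2 printed above, and it was 3.91-fold lower, at 0.627 FPKM in Ret null gut and 2.45 FPKM in wildtype gut (-1.97 ± 0.41, q = 0.000775 in the authors' deposited table).

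**Figure D2:**
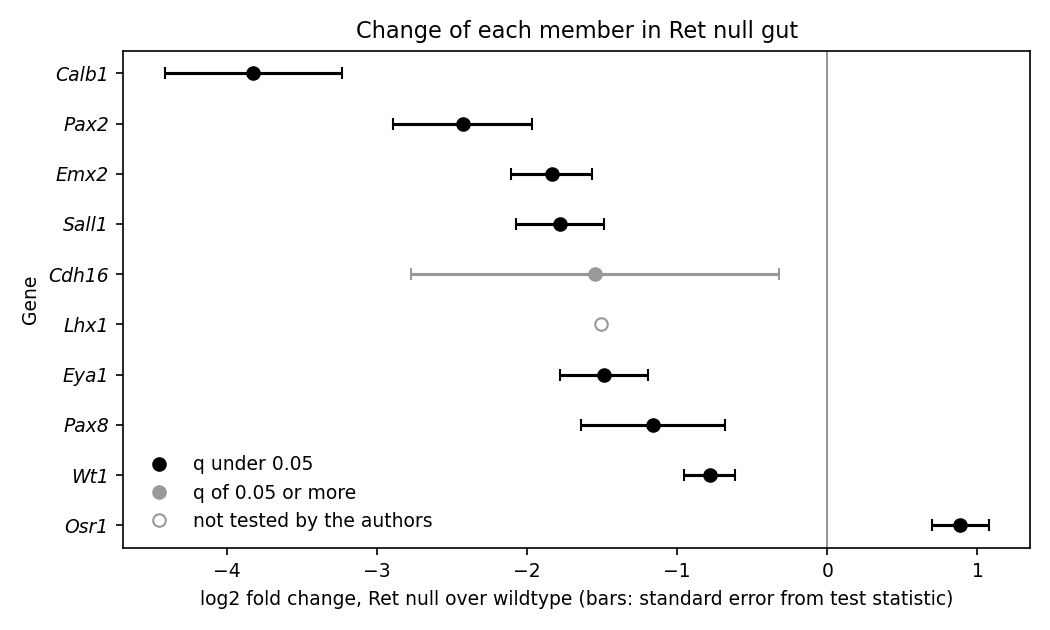
Log2 fold change of each gene, Ret null over wildtype, with bars for the standard error implied by the authors' test statistic. Black points had q under 0.05, the grey point (Cdh16) did not, and the open point (Lhx1) was not tested. The falls run from -0.78 for Wt1 to -3.82 for Calb1, and Osr1 is on the other side of 0.

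**Figure D3:**
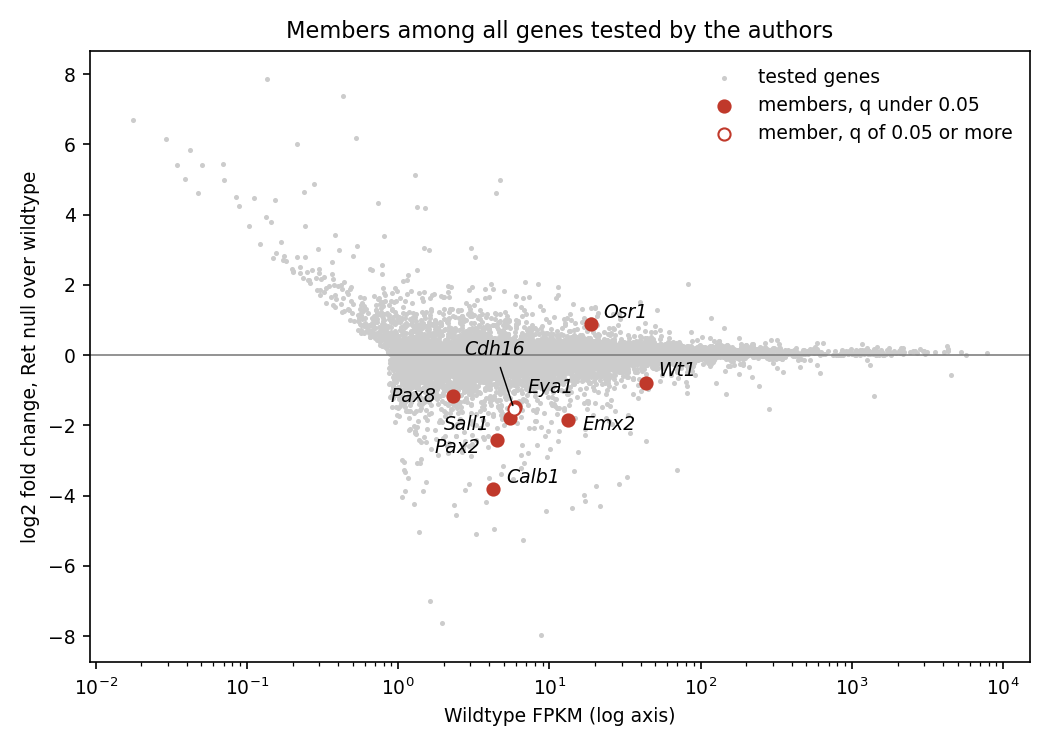
Wildtype FPKM (log axis) against the log2 fold change of each gene tested by the authors, in grey, with the 9 tested members in red and the one that did not pass open. The 8 tested members other than Osr1 lie below 0, from -0.78 for Wt1 to -3.82 for Calb1, and Osr1 lies above it at 0.89.

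Other genes of the nephric duct and ureteric bud moved in both directions. Of 17 tested lines for this list 6 fell, 4 rose and 7 did not pass, with a median of -0.16 on the log2(FPKM + 1) scale that is used for all list medians below. Ret itself, the receptor by which the duct answers Gdnf, was at 0.0354 FPKM in Ret null gut and 8.80 FPKM in wildtype gut, which checks the labels. Among the other falls, Tfap2b was at -1.65 ± 0.39 and the retinoic acid enzyme gene Aldh1a3 at -1.61 ± 0.44 on the log2 scale, and the log2 fold change of Wnt9b, a duct signal that induces nephrons, was -1.31 ± 0.46. Tfap2b is also a neural crest gene. Gata3, which acts downstream of Pax2 and Pax8 in the duct, was at 3.11 FPKM in Ret null gut and 5.49 FPKM in wildtype gut (-0.82 ± 0.28). In the other direction, the Ret co-receptor gene Gfra1 rose by 0.92 ± 0.19. The authors' deposited table gives q = 0.0042 for Ret and 0.000775 for the other genes named. By the normal p 4 genes of this list fell and 1 rose, and the calls of Wnt9b and Gata3 were among those lost. A minimum of 5 FPKM in either genotype left 2 falls, and a 1.5-fold minimum left 2 rises.

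In the list for the metanephric mesenchyme, the tissue that the ureteric bud enters, 9 of 19 tested genes fell, 4 rose and 6 did not pass (median -0.34). The stromal gene Foxd1 fell by 1.12 ± 0.22, Foxc1 by 0.97 ± 0.21 and Foxc2 by 0.94 ± 0.24 on the log2 scale. Hoxd11, one of the Hox genes that pattern the kidney mesenchyme, was at 4.82 FPKM in Ret null gut and 8.55 FPKM in wildtype gut. Six2, which keeps nephron progenitors in the kidney and also marks posterior stomach mesenchyme, was at 27.4 FPKM in Ret null gut and 13.1 FPKM in wildtype gut (1.06 ± 0.19). The BMP antagonist gene Grem1 rose by 1.07 ± 0.39 and Gdnf, the ligand of Ret, by 0.77 ± 0.20. Eya1 and Gdnf, which act in one pathway in the kidney, had changes of opposite sign in this table. Values of whole dissected tissue do not show which cells either RNA came from, and a change in that pathway was not tested. The authors' deposited table gives q = 0.00145 for Grem1 and 0.000775 for the others named. By the normal p 4 fell and 3 rose, and Grem1 was among those that no longer passed.

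Genes of nephron segments held more falls than rises. Of 12 tested genes 6 fell and 2 rose, and 7 others were not tested. The largest fall was in Pou3f3, a POU factor of distal nephron segments, at 0.273 FPKM in Ret null gut and 1.52 FPKM in wildtype gut (-2.48 ± 0.60). Cdh6, a cadherin of early nephrons, was at 1.59 FPKM in Ret null gut and 4.80 FPKM in wildtype gut (-1.59 ± 0.38), Irx3 fell by 0.94 ± 0.36 and Wnt4, needed for nephrons and for the early gonad, by 0.73 ± 0.22. Dll1, a Notch ligand gene, rose by 0.68 ± 0.27. The authors' deposited table gives q = 0.00145 for Irx3 and 0.000775 for the other 4. By the normal p 3 fell and 0 rose, namely Pou3f3, Cdh6 and Wnt4. A minimum of 5 FPKM left 2 falls and 1 rise.

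Genes of the gonadal ridge and adrenocortical primordium held falls and no rise: of 18 tested genes 7 fell, 0 rose and 11 did not pass, with a median of -0.16. Among those that did not pass, 2 were higher at an unadjusted p under 0.05 in the authors' Cuffdiff test, and 0 rose with the normal p. Nr5a1, the nuclear receptor that defines both primordia, was at 3.52 FPKM in Ret null gut and 11.1 FPKM in wildtype gut (-1.66 ± 0.28). Amh, the anti-Müllerian hormone gene, was at 6.75 FPKM in Ret null gut and 24.7 FPKM in wildtype gut (-1.87 ± 0.27), and its receptor gene Amhr2 at 2.22 FPKM in Ret null gut and 6.55 FPKM in wildtype gut (-1.56 ± 0.37). Lhx9, a LIM homeodomain gene of the ridge, fell by 0.70 ± 0.31, the Gata4 cofactor gene Zfpm2 by 0.53 ± 0.23 and Kitl by 0.38 ± 0.18 on the log2 scale. Gata4, which the ridge shares with foregut tissue, was at 20.9 FPKM in Ret null gut and 17.0 FPKM in wildtype gut and did not pass (q = 0.0515 in the authors' deposited table), although it would be the 1 rise at q under 0.1. The authors' deposited table gives q = 0.00263 for Lhx9, 0.00318 for Zfpm2, 0.0101 for Kitl and 0.000775 for Nr5a1, Amh and Amhr2. The last 3 were the genes that fell by the normal p.

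Sex-linked genes differed between the genotypes alongside this list. Xist, expressed from the inactive X of female cells, was at 31.8 FPKM in Ret null gut and 0.136 FPKM in wildtype gut, a log2 fold change of 7.88. All 4 Y-linked genes looked up were lower but still expressed in Ret null gut. Ddx3y was at 10.6 FPKM in Ret null gut and 18.3 FPKM in wildtype gut, and Eif2s3y at 18.1 FPKM in Ret null gut and 29.7 FPKM in wildtype gut. Kdm5d was at 7.25 FPKM in Ret null gut and 13.7 FPKM in wildtype gut, and Uty at 3.25 FPKM in Ret null gut and 6.47 FPKM in wildtype gut. Sry, the testis-determining gene, was at 0.0305 FPKM in Ret null gut and 0.606 FPKM in wildtype gut and was not tested by the authors. The part of sex in the values of gonadal genes was not tested.

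Genes of the coelomic epithelium and mesothelium, where Wt1 is also expressed, moved both ways. Of 9 tested genes 2 fell, 3 rose and 4 did not pass (median 0.18). Tbx18 fell by 1.18 ± 0.30 and Lrrn4 by 0.49 ± 0.26 on the log2 scale, and Msln, Krt19 and Aldh1a2 had log2 fold changes of 1.44, 0.85 and 0.42. Upk3b, a defining mesothelial marker, was at 38.3 FPKM in Ret null gut and 33.8 FPKM in wildtype gut and did not pass (0.18 ± 0.17), beside the fall of Wt1. The authors' deposited table gives q = 0.0153 for Lrrn4, 0.0211 for Msln, 0.00145 for Aldh1a2, 0.000775 for Tbx18 and Krt19, and 0.34 for Upk3b. By the normal p the fall of Tbx18 and the rise of Krt19 were kept. Only 1 fall was left at q under 0.01, at a minimum of 5 FPKM or at a 1.5-fold minimum.

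Genes whose proteins work with the members, such as the Pax cofactor Paxip1, the LIM cofactor Ldb1 and subunits of the NuRD complex that Sall1 binds, were close to equal in the genotypes. Of 24 tested genes 1 fell and 0 rose, beside 8.88% of all tested genes falling and 5.69% rising. Whether this short list differs from those shares was not tested. The log2 fold change of the one that fell, the ubiquitin ligase gene Rlim, was -0.28 ± 0.18 (q = 0.0453 in the authors' deposited table). At an unadjusted p under 0.05 in the authors' Cuffdiff test 2 were lower and 2 higher, and 0 passed with the normal p. There were 0 falls at q under 0.01 or with a 1.5-fold minimum and 2 at q under 0.1. Ldb1 stood at 137 FPKM in Ret null gut and 125 FPKM in wildtype gut.

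Paralogs of the members did not share one direction. Of 13 tested paralogs 3 fell and 5 rose, and 14 others were not tested. In the Eya family, Eya4 fell like Eya1, at 2.51 FPKM in Ret null gut and 4.78 FPKM in wildtype gut (-0.93 ± 0.28), while Eya2 and Eya3 had log2 fold changes near 0 (-0.01 and 0.00) that did not pass. In the Sall family, Sall4 rose by 0.74 ± 0.26, against the fall of Sall1, and Sall2 was at 29.9 FPKM in Ret null gut and 31.8 FPKM in wildtype gut and did not pass. Osr2, the paralog of Osr1, had a log2 fold change of -0.15 ± 0.27 and did not pass. In the Pax family, Pax1, a sclerotome gene, fell to 0.555 FPKM in Ret null gut, against 4.91 FPKM in wildtype gut, and Pax3, Pax4, Pax5, Pax6, Pax7 and Pax9 were not tested. Among LIM homeodomain genes Lmx1a fell by 1.41 ± 0.45, and Lhx2, Isl1 and Isl2 rose by 3.21 ± 0.82, 0.75 ± 0.19 and 1.30 ± 0.31. Cdh17, an intestinal cadherin gene, rose by 0.86 ± 0.41, while Cdh16 did not pass. The authors' deposited table gives q = 0.00206 for Lhx2, 0.00837 for Cdh17 and 0.000775 for the other paralogs said to rise or fall. By the normal p 3 paralogs fell and 3 rose, and Sall4 and Cdh17 no longer passed. A minimum of 5 FPKM left 0 falls and 3 rises, since the 3 paralogs that fell were below it in both genotypes.

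**Figure D4:**
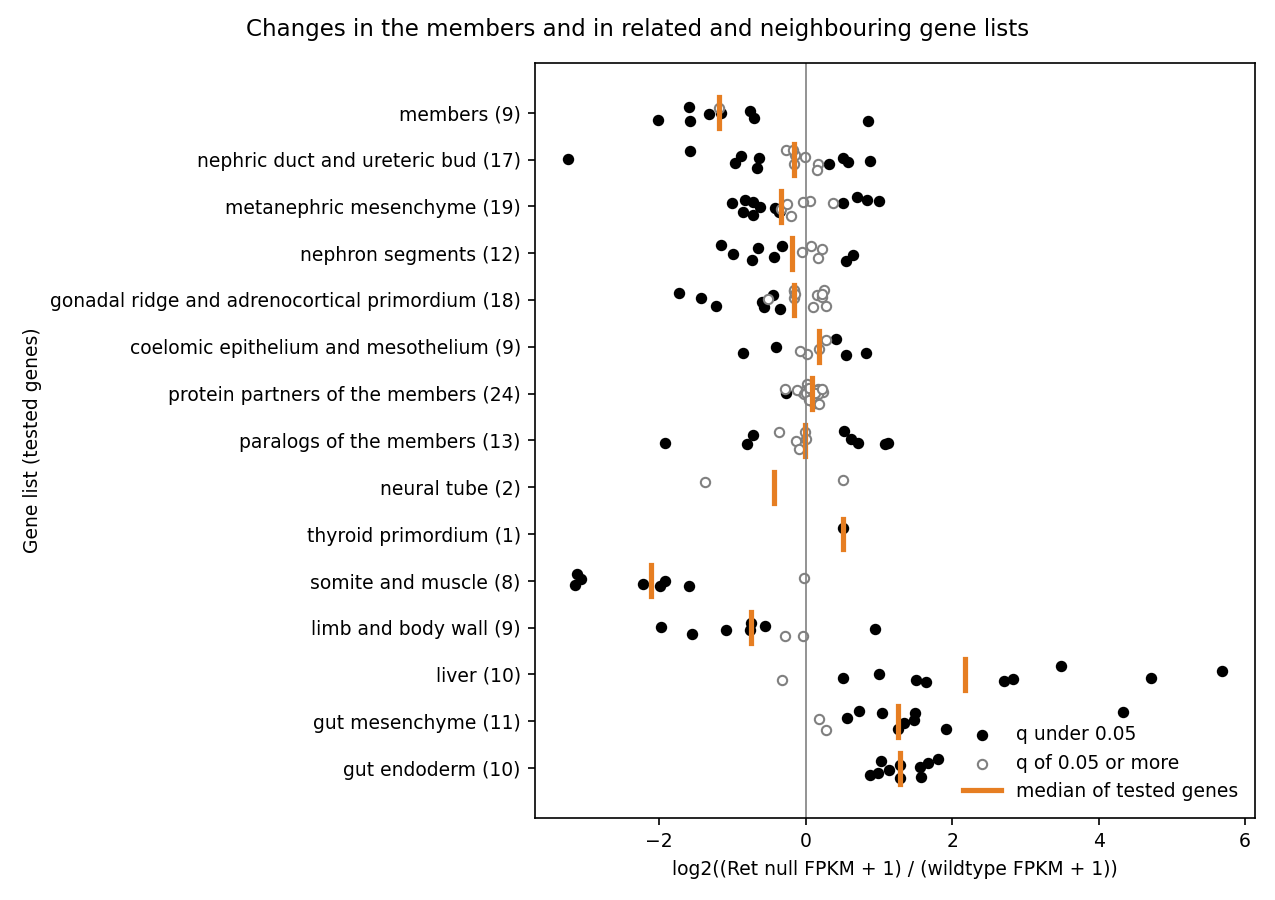
Each point is a tested gene, placed by log2((Ret null FPKM + 1) / (wildtype FPKM + 1)), with filled points at q under 0.05 and orange bars at the list medians, and the number of tested genes after each list name. The members' median is -1.19, the medians of the kidney and gonad lists run from -0.34 to -0.16, and somite, liver and gut lists lie farther from 0.

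Most tested markers of tissues that lie beside the intermediate mesoderm were lower in the Ret null value. Of 8 tested somite and muscle markers 7 fell and 0 rose, also at an unadjusted p under 0.05 in the authors' Cuffdiff test and with the normal p, and the summed level of the list was 14.1 FPKM in Ret null gut and 83.4 FPKM in wildtype gut. A minimum of 5 FPKM left 4 of the falls. The largest of these falls were in Uncx, Myh3 and Myog (-4.94, -4.35 and -3.99). Of 9 tested limb and body wall markers 6 fell, led by Tbx15, Alx4 and Hoxc10 (-4.25, -2.83 and -1.71), and 1, Pitx1, rose. The summed level of this list was 62.8 FPKM in Ret null gut and 82.2 FPKM in wildtype gut. Tbx4 and Prrx1 fell by 1.01 and 0.81 on the log2 scale, and Tbx5 did not pass (q = 0.183 in the authors' deposited table). By the normal p 4 falls, without Tbx4, and 1 rise were kept. A minimum of 5 FPKM also left 4 falls and 1 rise in this list. The part of these tissues in the falls of the members was not tested.

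Gut and liver markers were higher in the same Ret null value. Of 11 gut mesenchyme markers 9 rose, with Barx1, Nkx2-5 and Myh11 at log2 fold changes of 4.61, 2.14 and 2.07, and their summed level was 833 FPKM in Ret null gut and 366 FPKM in wildtype gut. All 10 gut endoderm markers rose, with summed levels of 222 FPKM in Ret null gut and 93.1 FPKM in wildtype gut, and Foxa2, Ihh and Sox2 at 2.42, 1.96 and 1.94. Of 10 liver markers 9 rose, led by Alb, Afp and Itih2 (7.39, 4.99 and 4.87), with summed levels of 318 FPKM in Ret null gut and 25.2 FPKM in wildtype gut. The part of these tissues in the rise of Osr1 and in the falls of the other members was not tested.

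Most markers of the neural tube and the thyroid primordium, where some members are also expressed, were under 1 FPKM in both genotypes and not tested by the authors. Pax2, Pax8 and Lhx1 are also genes of spinal interneurons, and the 16 neural tube markers summed to 3.52 FPKM in Ret null gut and 4.81 FPKM in wildtype gut. Only 2 of these were tested and neither passed, 1 (Nkx2-2) being higher at an unadjusted p under 0.05 in the authors' Cuffdiff test and 0 passing with the normal p. En1 was at 0.0127 FPKM in Ret null gut and 1.63 FPKM in wildtype gut (q = 0.45 in the authors' deposited table). Olig2 was listed at 0 in both genotypes, Lbx1 at 0 in wildtype gut, and Sox1 was at 0.016 FPKM in Ret null gut and 0.0163 FPKM in wildtype gut. Pax8 is also a thyroid gene, and Nkx2-1, Foxe1 and Tshr, which mark the thyroid primordium, were at 0.0892, 0.0657 and 0.188 FPKM in Ret null gut and at 0.082, 0 and 0.0802 FPKM in wildtype gut. Hhex was the only tested gene of the thyroid list, is shared with the liver list, and was at 4.70 FPKM in Ret null gut and 2.99 FPKM in wildtype gut. It rose by 0.65 ± 0.36 (q = 0.0459 in the authors' deposited table), a call not kept by the normal p, at q under 0.01 or at a minimum of 5 FPKM.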

How the data were processed

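RNA of E10.5 mouse guts, 3 samples of Ret null and 3 of wildtype genotype, was sequenced as paired reads of 75 bp, per the labels. Picard, TopHat2, Cufflinks and Cuffdiff were used with build mm10, per the submitters' processing notes. Versions, settings and strand were not given in the sources used here. Per genotype the deposited table holds 1 FPKM value, beside the authors' test statistic (a score), p-value and q-value for each gene; its columns are named w and h, read here as wildtype and homozygous null. Of 23234 lines, 1 held a pair of records run together and was not used. The authors' status marks 13430 lines as tested. The log2 fold change column the authors deposited holds spreadsheet error text, so log2 fold changes were recomputed from FPKM (Python 3.11.15, pandas 2.3.3). The standard error was the log2 fold change divided by the test statistic. The authors' p-values, adjusted here by Benjamini-Hochberg, gave their q-values to within 5.94e-05, and q under 0.05 was the main test. The normal p is a two-sided p from the test statistic, adjusted over all tested genes (scipy 1.17.1). The adjustment was run on simulated statistics drawn as normal, so that run cannot show whether the authors' statistic is normal. Starts were raised by 1.

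The members and the 16 gene lists were chosen with earlier results of these data known, so lists are described by counts and medians and given no set test. Of 221 listed symbols 2 matched no line. Named genes were all members, up to 6 called genes per kidney, gonad or partner list and up to 3 per neighbouring tissue by size of change at 1 FPKM or more, paralogs, and the markers fixed for each tissue; some genes this rule names are not reported here. Whether samples are separate litters is not stated, so the authors' p-values may measure technical spread. Alternatives were other q thresholds, minimum levels, a minimum fold, the normal p, median centring and added FPKM.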

Additional observations from a re-analysis of the deposited data

How the results depend on the processing

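The 7 falls and 1 rise among the members were kept in number at q under 0.01, at q under 0.1, at a minimum of 1 FPKM, with a 1.5-fold minimum and with centring on the median gene. A minimum of 5 FPKM in either genotype left 4 falls, since it leaves out Pax2, Pax8 and Calb1. With the normal p the members had 6 falls and 1 rise, and Pax8 was the call lost. Over the kidney, gonad, mesothelium, partner and paralog lists together, 34 genes fell and 18 rose. A minimum of 5 FPKM left 20 falls, and the normal p left 18 falls and 8 rises, against 2.78% of all tested genes falling and 1.72% rising by it. The counts summed over the neighbouring tissue lists stayed within 1.5 times under each alternative run, while single lists moved further where the report says so. No direction reversed in any alternative run, and with 1 FPKM added the changes were smaller, at -2.01 for Calb1 and -1.58 for Pax2. No paired analysis was possible because the table holds 1 value per genotype and no value per sample, and for the same reason no replicate could be left out. Depth is unknown, and values under 1 FPKM, such as those of Lhx1 and of Calb1 in Ret null gut, are the least certain.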
